A study of Mus musculus with 6 samples.

Results

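The miR-126 locus of the mouse is a small stretch of chromosome 2 with an annotated miRNA gene on each strand, Mir126a on the plus strand and Mir126b on the minus strand. Its members were taken as every row of the liver miRNA table named mmu-miR-126a or mmu-miR-126b, which gave 3 of 1039 rows, mmu-miR-126a-3p, mmu-miR-126b-3p and mmu-miR-126b-5p (mmu, for mouse, is left out hereafter). The samples were 6 livers of wild-type mice of the outbred ICR strain, 30 weeks of age by the labels, each mouse giving 1 small RNA library. All mice were kept on a high-fat diet throughout, and after its first 12 weeks they were gavaged for 8 weeks, with JTXK granule, a herbal preparation, in the J group (n = 3) or with sterile water in the M group (n = 3). A group on normal food was not analysed here, so the comparison is of treated with untreated mice on the same diet. Libraries held 2626353 to 4314134 reads assigned to miRNAs, and values were RPM, the reads of a row scaled to the same total of miRNA reads in every library, which came out as whole reads in all 1039 rows of each library within 0.01 reads.

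miR-126 is known as the miRNA of endothelial cells, the cells that line blood vessels and, in liver, the sinusoids. It lies in an intron of Egfl7, a gene for a protein secreted by endothelial cells, and the 3p arm is known to restrain Spred1 and Pik3r2, inhibitors of the signalling of vascular endothelial growth factor. A miRNA is cut from either arm of a folded hairpin, and bases 2 to 8, the seed, carry most of its pairing with targets. The table held miRNAs only, so whether these reads came from endothelial cells was not tested.

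The sequences are shown because the 3 rows are named for overlapping genes annotated on opposite strands. They are from RefSeq (build GRCm38.p6), and the positions come from that reference, not from the table, which carried no coordinates. The Mir126a hairpin lies at chr2:26591357-26591429 on the plus strand, with capitals for the bases covered by the position ranges in the names of the miR-126b-3p row (bases 9 to 29) and the miR-126a-3p row (bases 46 to 66). In the mature miRNAs the capitals mark the seed.
Mir126a hairpin: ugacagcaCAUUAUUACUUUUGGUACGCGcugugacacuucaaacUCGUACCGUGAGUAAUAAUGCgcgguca
miR-126a-3p (chr2:26591402-26591423, plus strand): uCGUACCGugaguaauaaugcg
miR-126b-3p (chr2:26591363-26591385, minus strand): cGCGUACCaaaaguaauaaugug
miR-126b-5p (chr2:26591399-26591420, minus strand): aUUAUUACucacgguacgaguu
The 58-base Mir126b hairpin (chr2:26591363-26591420) lies wholly within the 73 bases of Mir126a. The 3 seeds differed from each other, and among the 653 mouse rows matched to a RefSeq mature sequence each was carried by 1 row, the member itself. In the GENCODE vM21 annotation of GRCm38, Egfl7 spans chr2:26580014-26593120 on the plus strand. Of its 19 transcripts, 9 span Mir126a, which was intronic in 8 of them and exonic in 1 transcript with a retained intron, and intronic in 7 of 7 that code for protein.

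**Figure D1:**
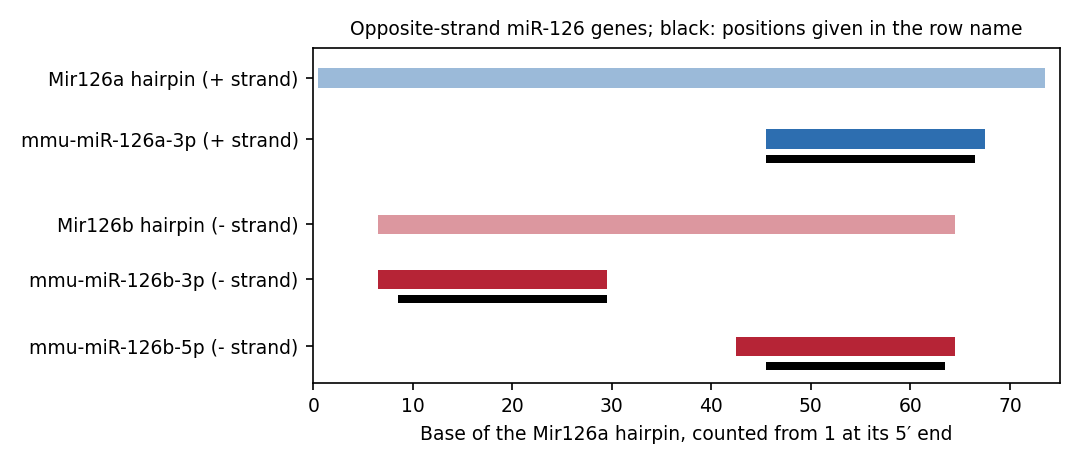
Position of both hairpins and the 3 mature miRNAs, in bases of the Mir126a hairpin counted from its 5′ end (x axis), with plus-strand features in blue and minus-strand features in red. Black bars give the positions in each row name, and those of miR-126b-5p fall within those of miR-126a-3p.

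Both 3p rows were among the abundant miRNAs of these livers, and the miR-126b-5p row was far lower. Levels are those of rows as named, and the strand of the reads under the miR-126b names was not tested. Ranked by mean RPM over the 6 libraries, the place was 22 for miR-126b-3p, 25 for miR-126a-3p and 112 for miR-126b-5p. Per library the ranks were 17 to 27, 22 to 29 and 94 to 124 in the same order, so the ranges of the 3p rows overlapped and that of miR-126b-5p lay apart.

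The miR-126a-3p row, the established arm, held 4166, 6718 and 5094 RPM in J group mice 1, 2 and 3, and 4761, 4486 and 5579 RPM in M group mice 1, 2 and 3. The J group held both the lowest and the highest library, so its range enclosed the whole M group. Means were 5326 ± 1292 RPM in J group mice and 4942 ± 568 RPM in M group mice (SD, n = 3 each). In a bulk sample, fewer cells of a type and less RNA per cell cannot be told apart, and this holds for each level given here. The row rested on 12505 to 24068 reads per library, for a 95% Wilson interval of at most 1.75% of the value on either side, which covers counting error only.

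The miR-126b-3p row, annotated on the minus strand, held 6015, 8400 and 7053 RPM in J group mice and 5131, 7813 and 6554 RPM in M group mice. Mouse 1 was the lowest of each group and mouse 2 the highest, and the groups overlapped. Means were 7156 ± 1196 and 6499 ± 1341 RPM (SD, n = 3 each), from 13477 to 30093 reads per library, with an interval of at most 1.68% of the value.

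The miR-126b-5p row, the other arm of the minus-strand hairpin, held 159, 239 and 187 RPM in J group mice and 161, 173 and 176 RPM in M group mice. The M group values lay close together and inside the J range. Means were 194.9 ± 40.6 and 169.9 ± 7.84 RPM (SD, n = 3 each), from 423 to 856 reads per library, which widens the counting interval to at most 9.54% of the value. J group mouse 2 was the highest library for each of the 3 rows. The highest library exceeded the lowest 1.61-fold, 1.64-fold and 1.50-fold for miR-126a-3p, miR-126b-3p and miR-126b-5p, beside a median of 1.77-fold over the 163 tested rows with at least 100 reads in every library.

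**Figure D2:**
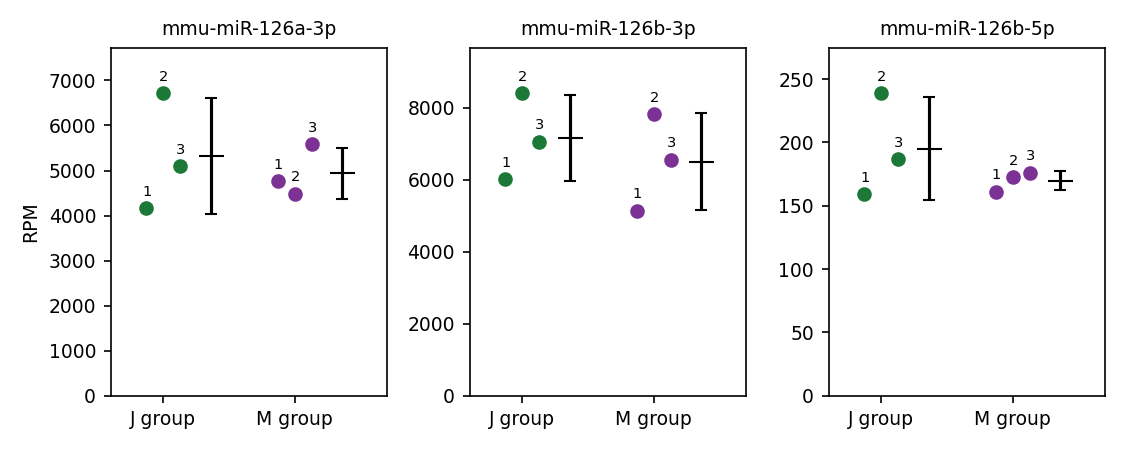
Level of each member in RPM (y axes from 0, different scales) in the J group (green) and the M group (purple), 1 point per mouse with its number, and bars for mean ± SD (n = 3). The groups overlap in each panel, and J group mouse 2 is the highest point in all 3.

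The question of the design is whether JTXK granule changed liver miRNAs of mice on a high-fat diet. None of the 3 members passed the study's thresholds (absolute log2 fold change above 0.3, p under 0.05, mean above 1 RPM in a group), and none had groups that did not overlap. Of the 548 miRNAs tested, 5.29% passed these thresholds and 13.5% had groups that did not overlap. Tested with limma on log2(RPM + 1), J over M, miR-126a-3p differed by 0.09 (SE 0.21, 95% interval -0.40 to 0.57, adjusted p = 0.89). The miR-126b-3p row differed by 0.15 (SE 0.21, interval -0.34 to 0.63, adjusted p = 0.81 by limma). For miR-126b-5p the difference was 0.18 (SE 0.23, interval -0.35 to 0.71, adjusted p = 0.81 by limma). The intervals reach past 0.3 on both sides, so a difference of the size of the threshold was not detectable either way with 3 mice per group. The median log2 fold change of all tested miRNAs was -0.13, and the members lay 0.22, 0.28 and 0.31 above it. Over other scalings this distance was 0.21 to 0.23 for miR-126a-3p, 0.23 to 0.29 for miR-126b-3p and 0.31 to 0.39 for miR-126b-5p, but single libraries moved it further. Without J group mouse 2 it was 0.049, 0.17 and 0.17 in the same order. Without M group mouse 1 it was 0.14, 0.067 and 0.22, and without M group mouse 2 it was 0.14 for miR-126a-3p.

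**Figure D3:**
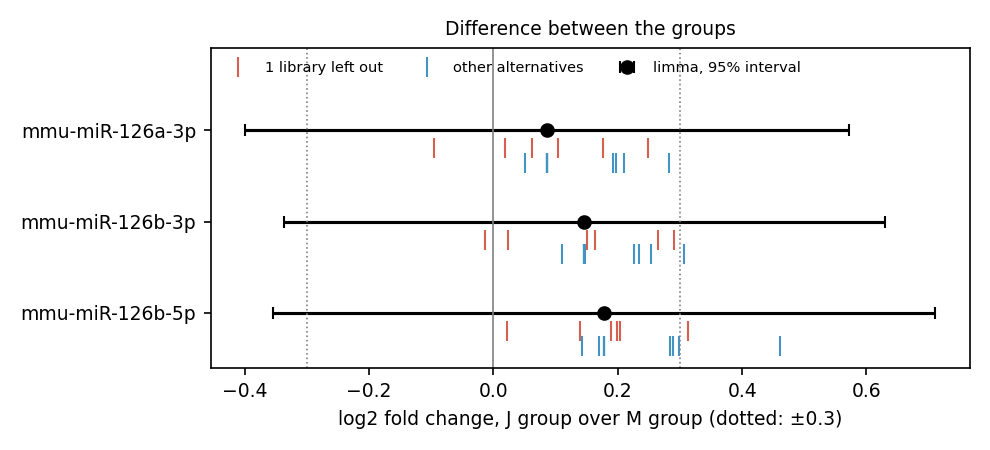
Difference of each member between the groups as log2 fold change, J over M (x axis). Points and lines are the limma estimate with its 95% interval, ticks are the values with 1 library left out (red) and under the other settings (blue), and each interval spans 0 and both dotted thresholds of 0.3.

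Added together, the 3 rows made up 1.01% to 1.54% of all miRNA reads. The sum was 10340, 15357 and 12334 RPM in J group mice and 10054, 12471 and 12309 RPM in M group mice, or 12677 ± 2526 and 11611 ± 1351 RPM (SD, n = 3 each). The groups overlapped, with J group mouse 2 again above the other libraries. The miR-126b-3p row held 51.0% to 62.6% of the sum, miR-126a-3p 36.0% to 47.4%, and miR-126b-5p 1.38% to 1.60%.

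Within every library the miR-126b-3p row stood above miR-126a-3p, although RPM of different miRNAs also carries how well each sequence enters a library. The positions in the miR-126b-3p name fall on the 5′ arm of Mir126a if read on the plus strand. Which arms the ratio compares was therefore not tested. The ratio was 1.444, 1.250 and 1.385 in the J group and 1.078, 1.742 and 1.175 in the M group. The M group held both the lowest and the highest ratio. The mean log2 ratio was 0.44 ± 0.11 and 0.38 ± 0.37 (SD, n = 3 each), a difference of 0.06 (two-sided exact permutation p = 0.9, where 3 against 3 cannot go below 0.1).

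The ratio of miR-126b-5p to miR-126a-3p, both on the 3′ arm of Mir126a by position, was narrow. It was 0.0382, 0.0356 and 0.0367 in the J group and 0.0338, 0.0385 and 0.0315 in the M group. The mean log2 ratio was -4.76 ± 0.05 and -4.86 ± 0.15 (SD, n = 3 each), and the difference of 0.09 did not pass (two-sided exact permutation p = 0.4, smallest possible 0.1).

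**Figure D4:**
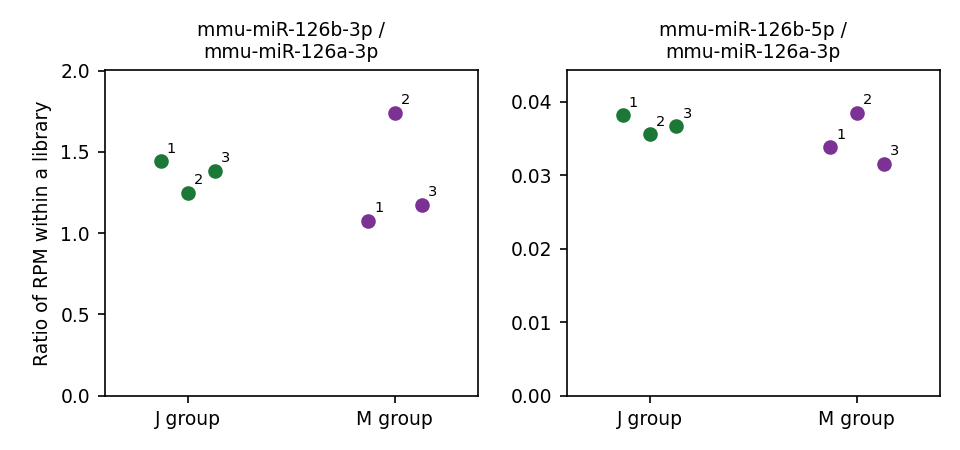
Ratio of RPM within a library (y axes from 0, different scales) of miR-126b-3p to miR-126a-3p (left) and of miR-126b-5p to miR-126a-3p (right), 1 point per mouse with its number. All 6 points on the left lie above 1, and those on the right between 0.0315 and 0.0385.

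Across the 6 libraries, 3 pairs of members were correlated on the log2 scale. For miR-126a-3p and miR-126b-5p, Pearson's r was 0.90 (exact permutation p = 0.0361, Benjamini-Hochberg adjusted 0.0542) and Spearman's rho 0.89 (exact permutation p = 0.0333, adjusted 0.1). Without the 2 libraries farthest from the median of miR-126a-3p, J group mice 1 and 2, r was 0.42 over the remaining 4, whose range is narrower by that choice, and with any 1 library left out it was 0.66 to 0.96. For both miR-126b rows, r was 0.77 (exact permutation p = 0.0306, adjusted 0.0542) and rho 0.77 (exact permutation p = 0.103, adjusted 0.154), and r was 0.55 without J group mouse 2 and M group mouse 1. For the 3p rows, r was 0.53 (exact permutation p = 0.272, adjusted 0.272) and rho 0.49 (exact permutation p = 0.356, adjusted 0.356), and r was -0.11 without J group mice 1 and 2. No pair passed after adjustment, and values of 1 library share its depth.

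The miRNAs whose levels most resembled miR-126a-3p were ranked by r over the 6 libraries, as a description, among 316 rows with at least 10 reads in every library. The closest was miR-378a-3p, from an intron of the metabolic coactivator gene Ppargc1b, with r 0.95 and a mean of 4685 RPM. It held 3884, 5962 and 4277 RPM in J group mice and 4254, 4285 and 5447 RPM in M group mice, so J group mouse 2 was also its highest library. The next were a predicted miRNA (r 0.93), miR-190a-5p (0.92), miR-125b-2-3p (0.92) and miR-335-5p (0.92). Ranked with these rows, miR-126b-5p stood 6 of 318 and miR-126b-3p 75 of 318.

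The names of the 3 rows also carry a range of positions, and it ran in opposite directions for the genes of opposite strand. The miR-126a-3p row was named with positions 1 to 21 of 22 bases, from low to high. The miR-126b-3p row was named 21 to 1 of 23 and the miR-126b-5p row 19 to 2 of 22, both from high to low. No source used here defines this notation, so it was compared over all mouse rows. Of 762 mouse rows, 577 had a range from low to high, 42 (5.51%) a range from high to low and 143 none. The stated length equalled the RefSeq length in 526 of 530 matched rows with a range.

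A range from high to low was more frequent among miRNAs with an annotated miRNA gene on the opposite strand. Such a gene was found for 15 of 34 matched rows with a high-to-low range (44.1%), 22 of 496 with a low-to-high range (4.44%) and 11 of 123 with none (8.94%). These shares are descriptions, since rows of the same gene are not independent.

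Read as the reverse complement, the stretches named in the miR-126b rows are plus-strand bases of the Mir126a hairpin. They are shown to place them against the miR-126a arms, with bases 2 to 8 in capitals.
reverse complement of positions 21 to 1 of miR-126b-3p: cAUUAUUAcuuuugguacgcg
reverse complement of positions 19 to 2 of miR-126b-5p: uCGUACCGugaguaauaa
The former is bases 9 to 29 of Mir126a, on its 5′ arm. The 5p arm of Mir126a was not analysed here under its own name. The latter is bases 46 to 63 of Mir126a, the first 18 bases of miR-126a-3p, and has the same bases 2 to 8 as that miRNA. The annotated miR-126a-3p and miR-126b-5p share 19 bases of genome on opposite strands.

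The miR-126b-3p name also holds a single letter change at position 6. Counted from the 5′ end of the reverse complement above it is U6A, and the base it starts from is the base found there. The mature miR-126b-3p has at position 6 the base that the change ends with, so the name can also be read as a change written in reverse order on the mature sequence. Over the table, the starting letter matched the mature sequence in 20 of 20 substitutions in rows without a high-to-low range. It matched in 0 of the 2 in rows with one, and there the reverse complement matched in 2 of 2 (miR-126b-3p and miR-3074-5p, with C14U), while the ending letter matched the mature sequence in the same 2 of 2. In the 20 other substitutions the ending letter matched the mature sequence in 0. Which reading holds for the 2 rows was not tested. The table holds no reads, so the strand of the reads counted under both miR-126b names was not tested, and their levels stand for rows as named.

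Rows with a high-to-low range were mostly rare, and the miR-126b rows stood out among them. The median of their mean levels was 0.319 RPM, beside 5.53 RPM for rows with a low-to-high range. The miR-126b-3p row was the highest of the 42 with a mean of 6828 RPM, miR-3074-5p the next with 4430 RPM, and miR-126b-5p came after these with 182 RPM. Rows with a high-to-low range held 0.944% (J group mouse 1) to 1.37% (J group mouse 2) of the miRNA reads, and the miR-126b rows made up 52.2% (M group mouse 1) to 65.4% (J group mouse 1) of that.

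**Figure D5:**
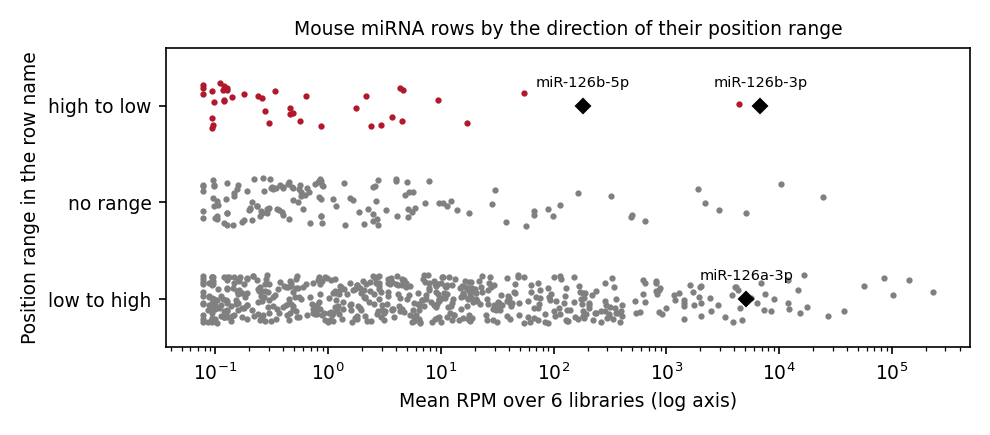
Mean RPM over the 6 libraries (x axis, log scale) of the mouse rows, 1 point each, by the direction of the position range in the row name. Diamonds are the miR-126 rows, and miR-126b-3p at 6828 RPM is the highest of the 42 rows with a high-to-low range.

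Pairs of rows annotated on opposite strands that overlap by at least 15 bases numbered 15, and 11 of them had exactly 1 row with a high-to-low range, which was the higher row in 3 of the 11. For miR-126a-3p and miR-126b-5p the row annotated on the plus strand was higher, at 5134 against 182 RPM. The reverse held for miR-3074-5p, at 4430 RPM, 9.13-fold above miR-24-3p at 485 RPM.

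Other miRNAs known from blood vessels were taken as a list of 31, of which 29 were tested, the 3 members included. Of these 29, 1 passed the thresholds and it was lower in the J group. Among all tested miRNAs, 3.83% passed as lower in the J group and 1.46% passed as higher. The median log2 fold change of the list was -0.19, beside -0.13 for all, and 4 of the 29 had groups that did not overlap, beside 13.5% of all tested. The 1 that passed was miR-146a-5p, a brake on inflammatory signalling that leukocytes also express, with 241 ± 18.7 RPM in J group mice and 1009 ± 721 RPM in M group mice (SD, n = 3 each, log2 fold change -1.79, SE 0.51, limma adjusted p = 0.55).

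Further listed miRNAs did not pass in the test with a mean above 1 RPM. Of the cluster of miR-23a, miR-27a and miR-24, log2 fold changes were -0.23, -0.36 and -0.35. Of the miR-17-92 cluster, which is active in growing vessels, miR-17-5p differed by -0.9997, miR-18a-5p by -1.51, miR-20a-5p by -0.92, miR-19b-3p by -0.53 and miR-92a-3p by -0.24. The M group was uneven for miR-17-5p (249 ± 249 RPM), miR-18a-5p (50.6 ± 66.4 RPM) and miR-20a-5p (484 ± 414 RPM, SD, n = 3). Their J group means were 91.5, 8.89 and 203 RPM. In the M group miR-19b-3p held 221 ± 98.9 RPM. The more abundant miR-92a-3p held 6081 ± 649 RPM in M group mice and 5215 ± 1126 RPM in J group mice. Of this cluster, miR-18a-5p passed by edgeR (-2.33) and by DESeq2 (-2.34), and miR-92a-3p passed without J group mouse 1 (-0.41). For miR-221-3p and miR-222-3p, known to restrain the receptor Kit in endothelial cells, the values were -0.02 and -0.06. The hypoxia-induced miR-322-5p had 51.0 ± 5.51 RPM in J group mice and 82.2 ± 24.2 RPM in M group mice (log2 fold change -0.64), and it passed with a filter of 10 RPM and without M group mouse 3 (-0.86). The rarer miR-155-5p passed without J group mouse 3 (-1.03).

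M group mouse 1 decided part of the list. For miR-10b-5p the means were 1272 ± 103 and 3641 ± 4786 RPM (SD, n = 3 each), and the log2 fold change of -0.59 became 0.53 without that mouse. Then 3 of the 29 passed, miR-10b-5p, miR-146a-5p (-1.24) and miR-23a-3p (-0.49), beside 32 of all 548 tested. Without M group mouse 2, 3 passed as well, miR-146a-5p (-1.78), miR-18a-5p (-2.18) and miR-20a-5p (-1.42), beside 45 of all 548.

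Marker miRNAs of other cells differed between libraries beside these results. The summed level of 7 leukocyte miRNAs was 988 to 1370 RPM in J group mice and 1768 to 6579 RPM in M group mice, with M group mouse 1 the highest, and 2 of the 7 passed as lower in the J group, beside 3.83% of all tested miRNAs. These were miR-342-3p and miR-146a-5p, the latter being the same row that passed in the vascular list. The leukocyte and vascular lists share miR-146a-5p and miR-155-5p. Stromal sums overlapped, at 12582 to 16890 RPM in J group mice and 16765 to 25242 RPM in M group mice. Of 4 tested stromal miRNAs 3 passed as lower, beside the same 3.83%. Among these, miR-214-3p lay just under the p threshold (limma adjusted p = 0.71) and passed in 3 of 16 alternatives. Hepatocyte sums overlapped, at 395960 to 423289 and 395332 to 454602 RPM, as did those of red blood cells (5842 to 8671 and 3914 to 13098 RPM) and bile duct cells (950 to 2379 and 1203 to 4298 RPM), with 0 passing in these 3 lists. The part of these levels in the miR-126 values was not tested.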

How the data were processed

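Total RNA of each liver was extracted with TRIzol, and small RNA libraries were made with a NEBNext kit and sequenced on an Illumina HiSeq. The authors deposited 1 table of RPM per miRNA row and library, and the submitters' processing notes name the mouse build mm9. Position ranges and letter changes in the row names are not defined in the sources used here. Reads per row were recovered from the RPM steps. Rows with a mean above 1 RPM in a group (548) were tested with limma 3.58.1 (R 4.3.3, trend) on log2(RPM + 1), so that fold changes of low rows are understated, and p-values were Benjamini-Hochberg adjusted over all 548. A row was called past an absolute log2 fold change of 0.3 with an unadjusted p under 0.05, as the study did. With an adjusted p under 0.05, limma called 0 (29 had an unadjusted p under 0.05), edgeR 0 and DESeq2 2.

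Alternatives were edgeR 4.0.16 and DESeq2 1.42.0 on recovered reads, other scalings, pseudocounts and filters, and each library left out. Single values were compared by exact permutation of the 6 libraries. The scripts were tested on simulated data. The members, lists and the named rows (the members, the 5 most similar rows and the vascular list) were chosen with earlier results of these data known. Sequences were matched by name to RefSeq GRCm38.p6, and no coordinates of mm9 were used. A count of 0 allows up to 3 reads, or 0.695 to 1.14 RPM.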

Additional observations from a re-analysis of the deposited data

How the results depend on the processing

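None of the 3 members passed the thresholds under any of 16 alternatives. Their log2 fold changes ranged from -0.10 to 0.28 for miR-126a-3p, from -0.01 to 0.31 for miR-126b-3p and from 0.02 to 0.46 for miR-126b-5p, with adjusted p from 0.659 to 0.996 over all of them (limma, edgeR or DESeq2). With 1 library left out, the ranges were -0.10 to 0.25, -0.01 to 0.29 and 0.02 to 0.31, and the sign turned for miR-126a-3p without J group mouse 2 (-0.10) and for miR-126b-3p without M group mouse 1 (-0.013). The difference in the log2 ratio of miR-126b-3p to miR-126a-3p ranged from -0.076 (without M group mouse 1) to 0.27 and was -0.01 without M group mouse 3, and that of miR-126b-5p to miR-126a-3p ranged from 0.03 to 0.17. Pearson's r with 1 library left out was 0.09 to 0.78 for the 3p rows, 0.66 to 0.96 for miR-126a-3p with miR-126b-5p and 0.68 to 0.92 for both miR-126b rows. Of all miRNAs, 29 passed (8 higher, 21 lower), 45 by edgeR (18 higher, 27 lower), and 21 (without J group mouse 2) to 45 (without M group mouse 2) with 1 library left out. The split was 17 higher and 13 lower with median-of-ratios scaling and 20 and 11 with quantile normalization. The vascular list had 1 to 3 past the thresholds, an alternative chosen after seeing the data, as was the distance of the members from the median with 1 library left out. With the replicate number as a block, 27 passed (8 higher, 19 lower). The block leaves the members' log2 fold changes (0.09, 0.15 and 0.18) as they are by construction, and their limma adjusted p were 0.90, 0.73 and 0.85. The numbers were not taken as pairing the mice, since deviations of same-numbered libraries correlated at 0.045, 0.058 and -0.006, and 1 of 3 J group libraries correlated best with its own number. With 3 mice per group and 423 to 856 reads of miR-126b-5p per library, small differences of that row are limited by counting as well as by the spread between mice.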
